A study of Mus musculus with 16 samples.

Results

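The 10 genes described here encode the soluble protein factors that carry a mitochondrial ribosome through a round of translation: Mtif2 and Mtif3 at initiation, Tufm, Tsfm, Gfm1 and Guf1 at elongation, Mtrf1 and Mtrf1l at release, and Mrrf and Gfm2 at recycling. They were chosen by name and function, found by gene symbol in the table of length-scaled transcript levels (TPM), and matched by Ensembl identifier in the count table, which lists 54393 genes. All 10 were present in both tables. The cells were mIMCD3, an epithelial line that came from a mouse carrying the SV40 T antigen and was taken from the collecting duct of the inner medulla, labelled wild type in all groups. They grew for 10 days on permeable filters and then received either the vehicle dimethyl sulfoxide (DMSO) or doxycycline (DOX) at 2 µg/mL, with medium renewed each day. The groups were DMSO for 3 days, DOX for 3 days, DMSO for 6 days and DOX for 6 days, each with 4 replicate libraries, 16 in all. Every library came from this 1 cell line, and nothing in the labels says that replicates were independent cultures, so p-values measure the spread between these libraries, which may be technical.

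Mitochondria translate the few messenger RNAs of their own genome on dedicated ribosomes, with factors that are all encoded in the nucleus and imported. Mtif3 keeps the subunits apart and helps to place the messenger, and Mtif2, a GTPase, brings in the formylated initiator transfer RNA. Tufm delivers each aminoacyl transfer RNA and is reloaded with GTP by its exchange factor Tsfm, Gfm1 moves the ribosome along, Mtrf1l and Mtrf1 read the end of the message, and Mrrf with Gfm2 splits the spent ribosome. Tetracyclines, doxycycline among them, bind bacterial ribosomes and also inhibit mitochondrial ones, which is background to the question of what happens to these messengers when the drug is used as an inducer in a kidney cell model.

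After 3 days of DOX, 4 of the 10 messengers passed as higher than in DMSO in a count test against 1.2-fold. These were Guf1, Tsfm, Mrrf and Mtrf1, by 1.42-fold to 1.61-fold, and 5.3% of all tested genes passed as higher. After 6 days Guf1 alone passed the same test, at 1.39-fold, or 1 of 10, the same share as the 10% of all tested genes. No factor passed as lower at either time. In a test on the TPM values as deposited, no factor passed at either time. Tufm, the most abundant of them in DMSO, stayed in counts within the range of its controls, with log2 fold changes of -0.01 at 3 days and 0.02 at 6 days (SE 0.06 at both times).

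Library totals ran from 16933343 to 23960860 estimated fragments, and Mtrf1, the least abundant factor, was seen with 44 to 92 of them per library. Krt18, Epcam and the other 4 epithelial markers were all expressed, together at 2125 to 2586 TPM in DMSO and 1570 to 1820 TPM in DOX, whereas the 10 markers of the inner medullary collecting duct, the aquaporins and sodium channel subunits among them, summed to 6.93 to 10.2 TPM in DMSO and 3.12 to 5.08 TPM in DOX, with 3 above 1 TPM on average. Fibroblast markers summed to at most 1.15 TPM and endothelial markers to at most 1.26 TPM, and the leukocyte list, led by Cd68, a lysosomal protein that other cells also make, stood at 17.3 to 24.6 TPM in DMSO and 7.86 to 12.7 TPM in DOX. These lists moved with treatment, and their part in the factors' values was not tested. Replicate 1 of DOX at 3 days stood apart from its 3 group mates: in it, short genes were lower against long genes by a log2 difference of -0.32, where the other 15 libraries lay between -0.17 and 0.17. The calls at 3 days and the change of effect between times are given for the factors with and without it, and the other gene groups at 3 days with it. By other measures replicate 1 of DMSO at 6 days stood apart: its mean r with its group mates was 0.981, where theirs were 0.987, 1002 genes lay over 0.5 log2 from the mates' mean, and 1.29% of its counts were from the mitochondrial genome, where its mates had 1.66% to 1.78%. Without it the same factors passed at 3 days, and Mtif3 joined Guf1 at 6 days.

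All 10 are annotated as protein-coding genes and lie apart from each other on GRCm38 (GENCODE M21). On the plus strand are Mtif2 at chr11:29526408-29545279, Tufm at chr7:126487361-126490731, Gfm1 at chr3:67430096-67476529, Guf1 at chr5:69556923-69575973, Mtrf1 at chr14:79397772-79423587, Mrrf at chr2:36136389-36190647 and Gfm2 at chr13:97137937-97181195. On the minus strand are Mtif3 at chr5:146951573-146963800, Tsfm at chr10:127011572-127030840 and Mtrf1l at chr10:5811887-5823910.

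The starts of 6 of the genes are shown. They set the 3 factors that rose and have a listed start (Tsfm, Mrrf, Mtrf1) beside 3 of those that did not pass the test (Tufm, Gfm1, Mtif2). Mtrf1l and Gfm2, which also have a listed start and did not pass, are not printed. RefSeq start windows on GRCm38.p6, 250 bases before to 50 after a start, were matched for 8 of the 10 members, Mtif3 and Guf1 being the other two. Each run below reads 5′ to 3′ on the strand of its gene and goes from 90 bases before the RefSeq start to 10 bases from it (4 for Tsfm), at chr10:127030811-127030904 on the minus strand for Tsfm and, on the plus strand, at chr2:36136308-36136407 for Mrrf, chr14:79397682-79397781 for Mtrf1, chr7:126487265-126487364 for Tufm, chr3:67430025-67430124 for Gfm1 and chr11:29526307-29526406 for Mtif2. Capitals mark an ETS match (CCGGAAG) or an ERR match (AAGGTCA), on either strand.
Tsfm: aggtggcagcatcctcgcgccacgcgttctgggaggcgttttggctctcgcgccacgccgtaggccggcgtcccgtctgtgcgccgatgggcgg
Mrrf: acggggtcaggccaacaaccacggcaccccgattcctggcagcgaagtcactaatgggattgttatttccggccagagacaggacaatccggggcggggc
Mtrf1: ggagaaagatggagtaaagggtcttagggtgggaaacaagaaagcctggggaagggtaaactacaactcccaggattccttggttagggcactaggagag
Tufm: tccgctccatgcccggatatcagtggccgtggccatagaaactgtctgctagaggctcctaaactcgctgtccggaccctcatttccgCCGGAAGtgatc
Gfm1: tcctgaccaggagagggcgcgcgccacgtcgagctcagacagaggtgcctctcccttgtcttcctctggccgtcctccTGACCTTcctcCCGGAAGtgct
Mtif2: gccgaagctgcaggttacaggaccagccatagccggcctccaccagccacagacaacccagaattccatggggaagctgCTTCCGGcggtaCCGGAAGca
The ETS letters were found in the windows of Tufm, Gfm1 and Mtif2, in each case within 11 bases of the start. They were in none of the other 5 member windows, which include those of Mtrf1l and Gfm2. The printed runs of factors that did not pass are thus only those with the letters, and no split by passing is read from them. Of all 32851 windows in the table, 8.86% hold them. The ERR letters were in Gfm1 and Mtrf1l, against 4.72% of all windows. Searches on both strands for NRF1 (GCATGCGC, in 2.71% of windows), YY1 (AAGATGGC, 2.75%), CRE (TGACGTCA, 1.79%) and a C/EBP-ATF element (TGATGCAA, 0.895%) found none in the 8 member windows, which says only that these letters are not there. No search motif overlapped another by its letters in the printed runs.

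The factors differed widely in level. In the 8 DMSO libraries Tufm had a mean of 50.3 TPM (SD 4.06), Gfm1 47.9 (SD 3.78), Tsfm 36.3 (SD 2.90), Mtif3 24.4 (SD 3.30), Mrrf 21.7 (SD 4.99), Mtif2 20.7 (SD 2.03), Gfm2 11.6 (SD 0.58), Guf1 10.5 (SD 1.51), Mtrf1l 6.87 (SD 1.40) and Mtrf1 2.11 (SD 0.40). TPM is per transcript length, so these levels can be set against each other. Neighbours that overlapped in their ranges were Tufm and Gfm1, Mtif3 and Mrrf, Mrrf and Mtif2, Gfm2 and Guf1, and Guf1 and Mtrf1l, although Guf1 was above Mtrf1l in 8 of 8 libraries. The steps that no library crossed lay between Gfm1 and Tsfm, Tsfm and Mtif3, Mtif2 and Gfm2, and Mtrf1l and Mtrf1. So the exchange factor Tsfm was present at a lower messenger level than the factor it serves, and of the release factors Mtrf1l, which reads the standard stop codons, was 3.25 times as high as Mtrf1.

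**Figure D1:**
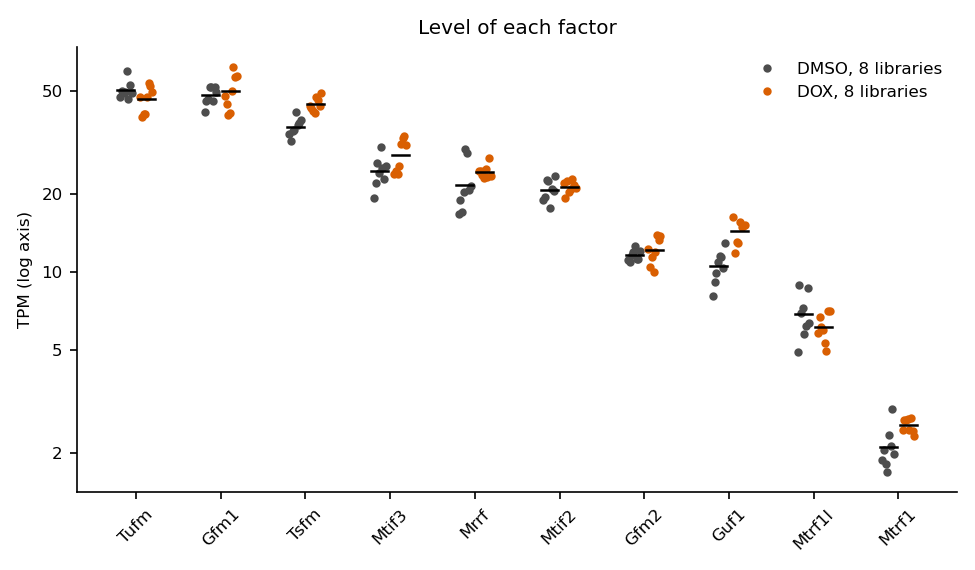
TPM on a log axis for each factor, ordered by its mean in the 8 DMSO libraries (grey), with the 8 DOX libraries in orange and short black lines at the means. Tufm and Gfm1 lie near 50 TPM and Mtrf1 near 2 TPM, and the DOX points of Guf1 and Tsfm lie mostly above their DMSO points.

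In DOX the order by TPM was close to that in DMSO: Gfm1 and Tufm changed places, and so did Guf1 and Gfm2. TPM values are salmon estimates that depend on which transcripts a gene's reads are given to. The length implied by count over TPM varied between libraries by 1.63 times for Mtrf1l and 1.47 times for Mrrf, against a median of 1.15 times over the tested genes and 1.01 times for Mtrf1. The comparisons between groups therefore rest on the counts, given as TMM-scaled CPM, the share of a library's counts times 1e6.

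Differences were tested with edgeR over all 13234 genes that reached 1 CPM in at least 4 libraries, against a minimum change of 1.2-fold, with Benjamini-Hochberg adjustment at 0.05. At 3 days 12.5% of these genes passed and 5.3% passed with a higher level in DOX, against which the 4 of 10 factors are to be read. Without replicate 1 of DOX at 3 days the share with a higher level was 8.17%, and the same 4 factors passed. At 6 days 21.6% passed and 10% passed with a higher level, the same share as the 1 of 10 factors. The median log2 fold change of the 10 factors was 0.23 at 3 days and 0.19 at 6 days, beside 0.003 and -0.0006 for all tested genes.

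At initiation, Mtif2 had 33.3, 31.0, 35.1 and 34.0 CPM in DMSO and 35.3, 39.7, 39.4 and 42.7 CPM in DOX at 3 days. Its DOX values were all above its DMSO values, replicate 1 by a small margin, yet the log2 fold change of 0.24 (SE 0.08, adjusted p = 0.816) did not pass a test that asks for more than 1.2-fold. At 6 days its groups overlapped, with 28.9, 35.8, 33.6 and 39.7 CPM in DMSO and 38.3, 37.0, 37.4 and 35.5 CPM in DOX. All 4 DOX libraries lay within the range of the controls, and the log2 fold change was 0.10 (SE 0.08).

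Mtif3 stood at 26.1, 28.5, 26.7 and 27.3 CPM in DMSO and 29.5, 31.5, 31.0 and 34.7 CPM in DOX at 3 days, a log2 difference of 0.22 (SE 0.07, adjusted p = 0.913). At 6 days it had 35.3, 30.1, 27.1 and 28.4 CPM in DMSO and 36.8, 35.9, 38.6 and 37.3 CPM in DOX. The groups did not overlap at either time, but replicate 1 of DMSO at 6 days lay close to the DOX libraries. The log2 fold change at 6 days was 0.30 (SE 0.07, adjusted p = 0.377), and 0.38 (adjusted p = 0.0477) without that library. The Mtif3 exons share 1505 bases, 29.4% of their length, with exons of Gtf3a on the other strand. Gtf3a, a transcription factor for 5S ribosomal RNA, was higher in DOX by a log2 change of 0.44 at 3 days (adjusted p = 0.0169) and 0.41 at 6 days (adjusted p = 0.0267). The library kit keeps strand, but the strand setting used in counting is not given in the sources used here, and its part in the Mtif3 values was not tested.

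**Figure D2:**
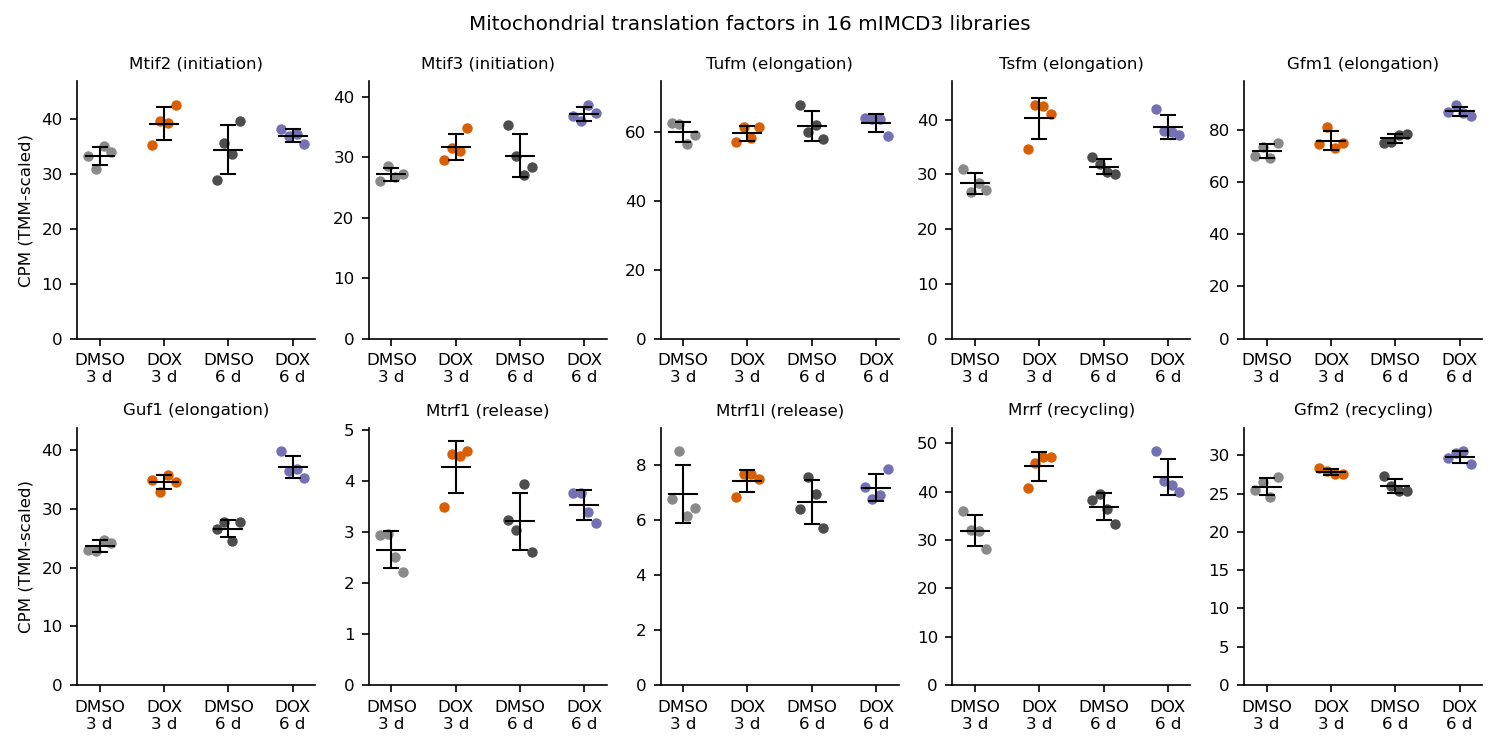
CPM of each factor (vertical axis from 0, TMM-scaled) in the 4 libraries of each group, with black bars for the mean and SD. For Mtif3, Tsfm, Guf1, Mrrf and Gfm2 all 8 DOX points lie above the DMSO points of the same day, and for Tufm the 4 groups overlap.

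At elongation the factors did not move alike. Guf1, the mitochondrial relative of the bacterial elongation GTPase LepA, had 23, 22.8, 24.8 and 24.1 CPM in DMSO and 34.9, 32.9, 35.8 and 34.6 CPM in DOX at 3 days. At 6 days the values were 26.5, 27.7, 24.6 and 27.8 CPM in DMSO and 39.8, 36.5, 36.7 and 35.3 CPM in DOX. The gap between the highest control and the lowest treated library was several CPM at both times. Guf1 rose by a log2 change of 0.55 at 3 days (SE 0.06, adjusted p = 0.000297) and 0.48 at 6 days (SE 0.06, adjusted p = 0.00148), and the changes did not differ between times beyond error (difference -0.07, SE 0.08, adjusted p = 0.610). Guf1 exons share 1022 bases, 9.85% of their length, with Gnpda2 on the opposite strand, an enzyme of amino sugar metabolism that was higher at 3 days by 0.56 (adjusted p = 0.0132) and at 6 days by 0.25 without passing (adjusted p = 0.663).

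Tsfm had 31.0, 26.9, 28.3 and 27.1 CPM in DMSO and 34.7, 42.7, 42.4 and 41.1 CPM in DOX at 3 days. Replicate 1 of DOX was the lowest of its group and still above all controls. Tsfm rose by a log2 change of 0.51 (SE 0.07, adjusted p = 0.00371). At 6 days it had 33.2, 31.8, 30.4 and 30.1 CPM in DMSO and 42.0, 37.9, 37.6 and 37.1 CPM in DOX, again without overlap, and the log2 fold change of 0.30 (SE 0.07, adjusted p = 0.357) did not pass the 1.2-fold test. The Tsfm exons share 165 bases, 5.68% of their length, with exons of Avil, which encodes the actin-binding protein advillin and lies on the opposite strand. Avil went from 0.543 to 0.857 CPM in DMSO to 5.10 to 7.92 CPM in DOX at 3 days, and from 0.280 to 0.596 CPM to 9.77 to 11.7 CPM at 6 days, log2 changes of 3.30 (adjusted p = 2.52e-10) and 4.62 (adjusted p = 6.83e-13). The Avil change was larger at 6 days than at 3 (difference 1.32, adjusted p = 0.00978). For Tsfm the difference between the times did not pass (-0.21, adjusted p = 0.158). What Avil reads add to the Tsfm values was not tested.

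Tufm had 62.6, 62.4, 56.5 and 59.1 CPM in DMSO and 57.3, 61.5, 58.2 and 61.6 CPM in DOX at 3 days. At 6 days it had 67.9, 59.9, 62.0 and 57.9 CPM in DMSO and 64.2, 63.8, 63.7 and 58.8 CPM in DOX. These groups overlapped almost wholly, and no exon of another gene lies over Tufm. Gfm1 had 70.1, 73.5, 69.3 and 74.9 CPM in DMSO and 74.7, 81.1, 72.9 and 75.0 CPM in DOX at 3 days, with overlap. At 6 days, with 75.1, 75.5, 77.9 and 78.4 CPM in DMSO and 87.0, 89.6, 86.5 and 85.4 CPM in DOX, the groups were apart, and the log2 fold change of 0.18 (SE 0.05) was below the 1.2-fold minimum. Gfm1 shares 63 exon bases with Lxn, a carboxypeptidase inhibitor on the opposite strand that was lower at 6 days (-0.53, adjusted p = 0.00329).

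**Figure D3:**
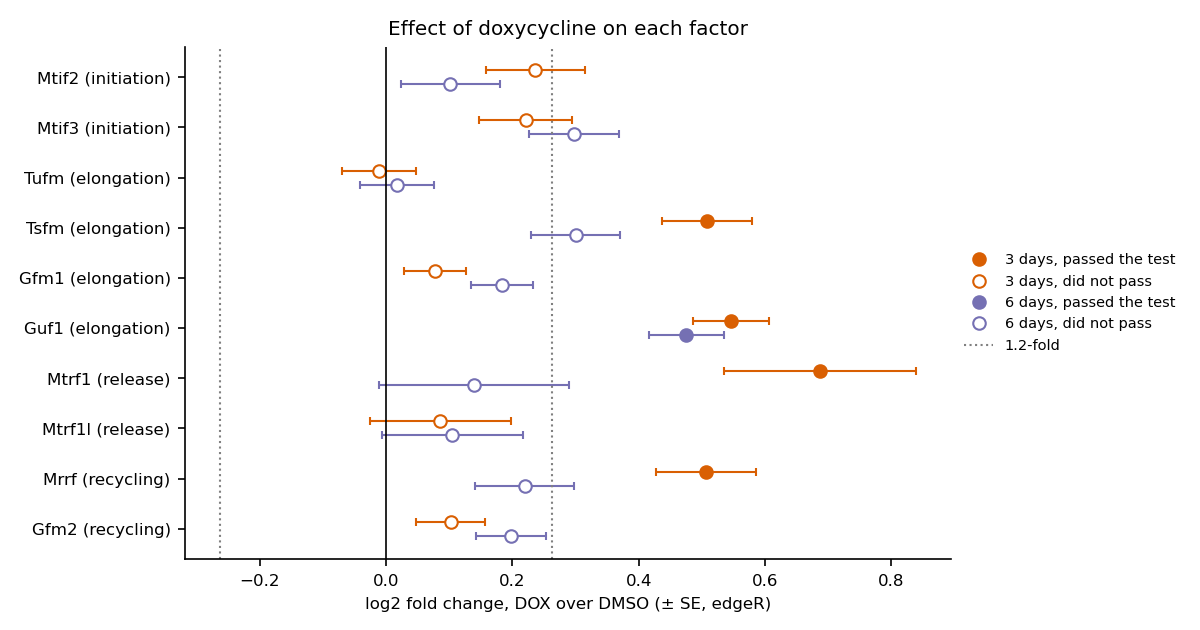
Log2 fold change of each factor, DOX over DMSO, with SE, at 3 days (orange) and 6 days (purple); filled points passed the edgeR test against 1.2-fold, which dotted lines mark. Guf1 is filled at both times, Tsfm, Mtrf1 and Mrrf at 3 days, and all points but Tufm at 3 days lie above 0.

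At release, Mtrf1 had 2.94, 2.97, 2.52 and 2.21 CPM in DMSO and 3.51, 4.53, 4.50 and 4.59 CPM in DOX at 3 days. Here too replicate 1 of DOX was the lowest and above the controls. Mtrf1 rose by a log2 change of 0.69 (SE 0.15, adjusted p = 0.0140), the largest point estimate and the largest error among the 10 at that time. This call was lost without replicate 4 of DMSO at 3 days (0.60, adjusted p = 0.0578) and with DESeq2 (adjusted p = 0.141). At 6 days Mtrf1 had 3.25, 3.04, 3.95 and 2.62 CPM in DMSO and 3.77, 3.78, 3.39 and 3.19 CPM in DOX, which overlapped (log2 fold change 0.14, SE 0.15).

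Mtrf1l had 6.74, 8.48, 6.12 and 6.43 CPM in DMSO and 6.81, 7.67, 7.65 and 7.48 CPM in DOX at 3 days. At 6 days it ran from 5.71 to 7.55 CPM in DMSO and from 6.74 to 7.85 CPM in DOX. The groups overlapped at both times, and the log2 fold changes were 0.09 and 0.10 (SE 0.11 each).

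At recycling, Mrrf had 35.9, 31.9, 31.8 and 28.1 CPM in DMSO and 40.8, 45.8, 47.2 and 47.1 CPM in DOX at 3 days. It rose by a log2 change of 0.51 (SE 0.08, adjusted p = 0.00757). At 6 days the values were 38.3, 39.6, 36.3 and 33.2 CPM in DMSO and 48.3, 42.2, 41.3 and 40.0 CPM in DOX, so that the lowest DOX library lay just above the highest control, and the log2 fold change of 0.22 (SE 0.08, adjusted p = 0.844) did not pass. Mrrf shares 385 exon bases with Rbm18 on the opposite strand, which had a log2 fold change of 0.28 at 3 days (adjusted p = 0.544), and 365 with the pseudogene Gm13428, which is listed at 0 TPM in every library.

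Gfm2 had 25.5, 26.6, 24.6 and 27.1 CPM in DMSO and 28.4, 27.9, 27.6 and 27.6 CPM in DOX at 3 days, a log2 change of 0.10 (SE 0.06). At 6 days it had 27.4, 26.0, 25.4 and 25.3 CPM in DMSO and 29.7, 30.3, 30.5 and 28.8 CPM in DOX, a log2 change of 0.20 (SE 0.05). Its groups were apart at both times, but neither change passed.

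All 4 DOX libraries were above all 4 DMSO libraries for 7 of 10 factors at 3 days and for 6 of 10 at 6 days, beside 18.8% and 22.1% of all tested genes, and in CPM for no factor were they all below. Without the 1.2-fold minimum, edgeR's quasi-likelihood test passed 6 factors at each time, all higher: Mtif2, Mtif3, Tsfm, Guf1, Mtrf1 and Mrrf at 3 days, and Mtif3, Tsfm, Gfm1, Guf1, Mrrf and Gfm2 at 6 days. Over all tested genes 23% and 25.7% passed that test with a higher level in DOX.

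The calls did not carry over to a test on TPM. With limma on log2(TPM + 1), again against 1.2-fold, no factor passed at 3 days, where 1 had an unadjusted p under 0.05, or at 6 days, where 0 had, while 4.63% and 9.01% of 13739 genes passed. On that scale the median of all genes was shifted by -0.15 at 3 days and -0.06 at 6 days. Taken relative to the shift, the log2 differences at 3 days were 0.62 for Guf1, 0.53 for Mrrf, 0.50 for Mtrf1 and 0.46 for Tsfm. Counts gave 0.55, 0.51, 0.69 and 0.51 in that order, so that Mtrf1 was smaller on log2(TPM + 1). On log2(TPM + 0.1), where the shift was -0.17, the relative differences were 0.68, 0.57, 0.65 and 0.48 in the same order. Mtrf1 was then close to its value in counts. Unshifted on log2(TPM + 1), Tufm, Gfm1, Gfm2 and Mtrf1l were at -0.22, -0.09, -0.05 and -0.14 at 3 days. Tufm then had 47.19 to 49.6 TPM in DMSO and 39.4 to 47.17 TPM in DOX, all 4 DOX libraries below the controls, and relative to the shift its difference was -0.06. After each library was centred on its median, Guf1 passed the limma test at 3 days (0.63, adjusted p = 0.00342). Tsfm (adjusted p = 0.0520), Mrrf (adjusted p = 0.192) and Mtrf1 (adjusted p = 0.274) did not pass. At 6 days Guf1 did not pass (0.43, adjusted p = 0.138).

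Whether the DOX effect changed between 3 and 6 days was tested as a difference of differences in the same edgeR fit. No factor passed, although 17% of all tested genes did; 2 factors had an unadjusted p under 0.05 with edgeR, and DESeq2 and limma on TPM also passed none. The nearest were Mrrf (difference -0.29, SE 0.11, adjusted p = 0.0781), Mtrf1 (-0.55, SE 0.21, adjusted p = 0.0795) and Tsfm (-0.21, SE 0.10, adjusted p = 0.158), each with a smaller DOX effect at 6 days. Without replicate 1 of DOX at 3 days, the library with low short genes, all 3 passed: Mrrf at -0.33 (adjusted p = 0.0246), Tsfm at -0.27 (adjusted p = 0.0235) and Mtrf1 at -0.63 (adjusted p = 0.0308). Of all tested genes 28.7% passed in that fit, a share near 3 of 10. Without replicate 4 of DMSO at 6 days Mrrf and Mtrf1 passed, and Mrrf alone passed without replicate 1 of DMSO at 3 days or replicate 1 of DOX at 6 days. The same 4 factors passed at 3 days without that DOX library, with log2 changes of 0.77 for Mtrf1, 0.57 for Tsfm, 0.55 for Mrrf and 0.54 for Guf1.

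Gene length moved with the 3-day comparison. In the 25% of genes with the shortest exons the median log2 difference between DOX and DMSO was 0.14 at 3 days and in the 25% with the longest -0.11, whereas at 6 days both were -0.02. With a correction of the counts for length and GC content, the same 4 factors passed at 3 days, Guf1 at 0.64, Mtrf1 at 0.60, Mrrf at 0.53 and Tsfm at 0.50, and Guf1 passed at 6 days at 0.57. In that fit Mrrf also passed for the change of effect between times (-0.32, adjusted p = 0.0459).

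The vehicle controls of the 2 days were compared in the same way to see what time alone does. Against the 1.2-fold minimum no gene passed, 0% of 13234 with edgeR and with DESeq2. Of all tested genes 172 had an unadjusted p under 0.05 with edgeR and 28 with DESeq2, and no factor had one with either tool. Without the minimum 4 factors had an unadjusted p under 0.05 with edgeR, Guf1, Mrrf, Mtif3 and Tsfm, each higher at 6 days. In that test 2355 of all 13234 genes had such a p, and 62 passed after adjustment. None of the factors passed after adjustment, the lowest adjusted p being 0.154 for Guf1. The factors' log2 differences, day 6 over day 3, ran from -0.07 for Mtrf1l to 0.27 for Mtrf1, with a median of 0.12 beside 0.001 for all tested genes. For Gfm1 all 4 libraries at 6 days were above those at 3 days. The share of all genes set apart in this way between the DMSO days is not given here.

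Ratios of TPM between factors that work as pairs gave a measure that does not depend on scaling between libraries. The Tufm to Tsfm ratio was 1.38, 1.55, 1.40 and 1.40 in DMSO and 1.08, 0.923, 0.973 and 0.991 in DOX at 3 days. At 6 days it was 1.43, 1.26, 1.40 and 1.26 in DMSO and 1, 1.17, 1.2 and 1 in DOX. Under DOX the messengers of the factor and its exchange factor were near equal at 3 days. At 6 days the mean ratio in DOX was 1.09 (SD 0.10). No DOX library overlapped the controls of its day. The log2 ratio differed by -0.53 at 3 days and -0.30 at 6 days, each with p = 0.0286 in a two-sided exact permutation test, the smallest that 4 against 4 libraries allow, and an adjusted p of 0.0714 over the 10 tests of 5 ratios at 2 times.

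The Mtrf1l to Mtrf1 ratio was 3.75 ± 0.80 in DMSO and 2.33 ± 0.13 in DOX at 3 days (SD, n = 4) and did not pass after adjustment (log2 difference -0.66, exact permutation p = 0.0286, adjusted p = 0.0714). At 6 days the same ratio was 2.86 ± 0.31 and 2.49 ± 0.59, which overlapped. The Mrrf to Gfm2 ratio was 1.60 ± 0.14 in DMSO and 2.19 ± 0.17 in DOX at 3 days, a log2 difference of 0.45 with the same exact permutation p of 0.0286 (adjusted p = 0.0714, n = 4), and at 6 days it was -0.17 (exact permutation p = 0.314), or 0.02 when the ratio was taken from CPM, so no direction is read from it. Gfm1 to Gfm2 hardly moved, with log2 differences of -0.04 and 0.02, and Mtif2 to Mtif3 differed by -0.09 and -0.23, with overlap at both times. No ratio passed after adjustment, and with 4 libraries a side at least 6 of the 10 tests would have had to reach the smallest p for any to pass. Without replicate 1 of DOX at 3 days the Tufm to Tsfm difference on that day was -0.57, that of Mtrf1l to Mtrf1 -0.67 and that of Mrrf to Gfm2 0.49.

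**Figure D4:**
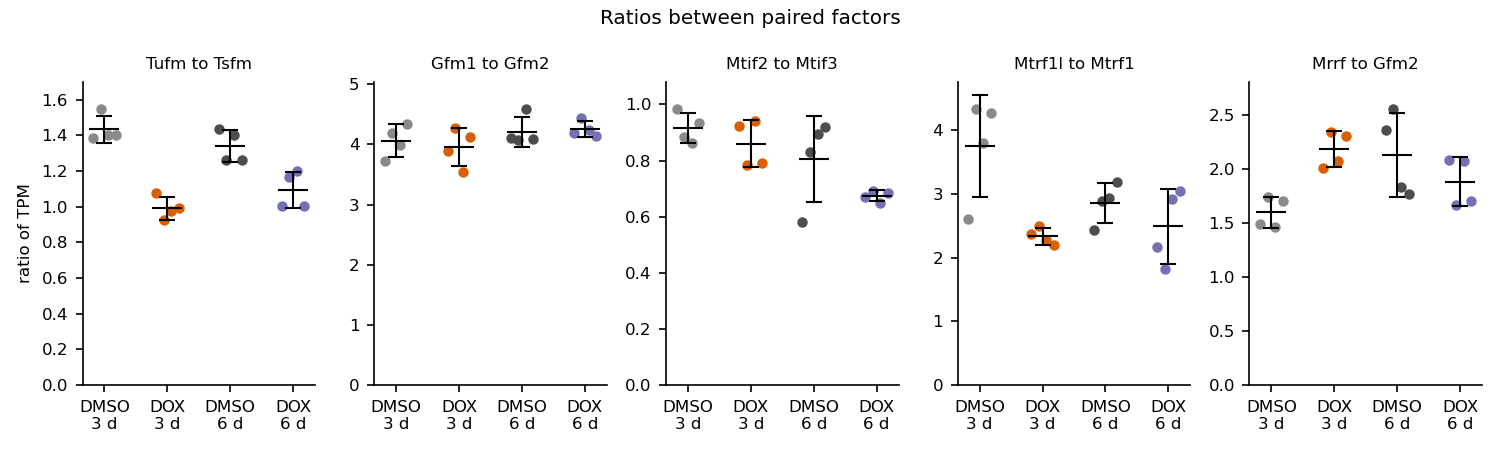
Ratio of TPM between paired factors (vertical axes from 0) in each library, with mean and SD per group. The Tufm to Tsfm ratio lies between 1.26 and 1.55 in DMSO and between 0.923 and 1.2 in DOX.

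Across the 16 libraries, Pearson's r of log2 CPM among the 45 pairs of factors had a median of 0.48 and ran from -0.34 (Mtif2 and Tufm) to 0.96 (Tsfm and Mrrf). Within groups, with group means taken out, the median was 0.11, and Tsfm and Mrrf still had r = 0.83. The libraries come from groups that differ in treatment and time, so r across all 16 also holds the differences between groups. Length trend and depth differ between libraries too, so these are descriptions. The genes with the most similar profile to Guf1 were Bend6 (r = 0.98), Ahi1 (0.97) and Ghitm (0.97). For Tsfm they were Bloc1s2 (0.98), 4933434E20Rik (0.97) and Slc25a5 (0.97), for Mrrf Dap3 (0.96), 4933434E20Rik (0.96) and Tsfm itself (0.96), and for Mtrf1 Nr2c2ap (0.92) and Alkbh6 (0.91). Dap3 is a protein of the small mitochondrial ribosomal subunit, Slc25a5 an ADP/ATP carrier and Ghitm a protein of the inner mitochondrial membrane.

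The genes that work around these factors were described by the same test. Among 78 mitochondrial ribosomal proteins 12 rose and none fell at 3 days (median log2 fold change 0.31), and at 6 days 2 rose and 3 fell (median 0.03). Of all 13234 tested genes 702 passed as higher and 956 as lower at 3 days, and 1326 and 1530 at 6 days. Both shares of the list at 6 days were below those of all genes. At 6 days Mrps21 went from 101 to 72.8 CPM (log2 change -0.48, adjusted p = 0.0162) and Mrpl18 from 71.6 to 52.5 CPM (-0.45, adjusted p = 0.0222), while Mrps31 and Mrpl4 rose by 0.45 and 0.44. For 36 of the 78 the DOX effect passed the test as lower at 6 than at 3 days, and for none as higher, beside 9.58% of all tested genes that passed as lower. The calls for this change over all genes vary with single libraries. Short and long genes differed at 3 days (medians 0.14 and -0.11) and not at 6 days. No count with the length correction is given for this list, and the part of gene length was not tested.

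Of 23 ribosome assembly factors 4 rose at each time, the helicase Ddx28 by 0.58 (adjusted p = 0.000299) and the ribosomal RNA methyltransferase Mrm1 by 0.55 (adjusted p = 0.00570) at 6 days. These shares stand beside the 5.3% of all tested genes that passed with a higher level at 3 days and the 10% at 6 days. Of 17 mitochondrial aminoacyl-tRNA synthetases 2 rose at each time, and Wars2 and Nars2, which charge tryptophan and asparagine transfer RNA, led at 6 days with 0.47 each (adjusted p = 0.00487 and 0.0425). Of 11 genes for transfer RNA modification 1 rose at each time, which at 6 days was the pseudouridine synthase Pus1 (0.44, adjusted p = 0.00885). None of these lists had a member that fell, and for the synthetases and the modification genes the shares at 6 days are near that of all genes.

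For the start and the end of the nascent chain, 1 of 4 genes rose at 3 days and 2 at 6 days, when the methionine aminopeptidase Metap1d changed by 0.53 (adjusted p = 0.000493) and the membrane insertase Oxa1l by 0.48 (adjusted p = 0.00302). Among 7 tested genes for messenger stability and translational activation, none passed at 3 days and Lrpprc, which binds and stabilises mitochondrial messengers, rose at 6 days (0.48, adjusted p = 0.00453). The 2 other release and rescue factors, Mrpl58 and 2810006K23Rik, passed at neither time. Of all tested genes 5.3% passed with a higher level at 3 days and 10% at 6 days. With lists of 2 to 7 genes no difference from these shares is read.

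Of the 13 protein-coding transcripts of the mitochondrial genome, which the factors serve, 4 rose and 1 fell at 3 days and 8 rose at 6 days, when their median log2 fold change was 0.76. mt-Nd2 and mt-Nd3, subunits of complex I, led with 1.77 (adjusted p = 4.40e-11) and 1.61 (adjusted p = 2.23e-06). The libraries were poly(A)-selected, so a change in tail and a change in amount of these transcripts cannot be told apart. Among 20 cytosolic translation factors 5 rose at 3 days and 1 at 6 days, Eef2, the cytosolic counterpart of Gfm1, by 0.65 (adjusted p = 6.66e-05). The rises in these 2 lists stand beside 5.3% of all tested genes at 3 days and 10% at 6 days. The cytosolic share at 6 days was below that of all genes.

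**Figure D5:**
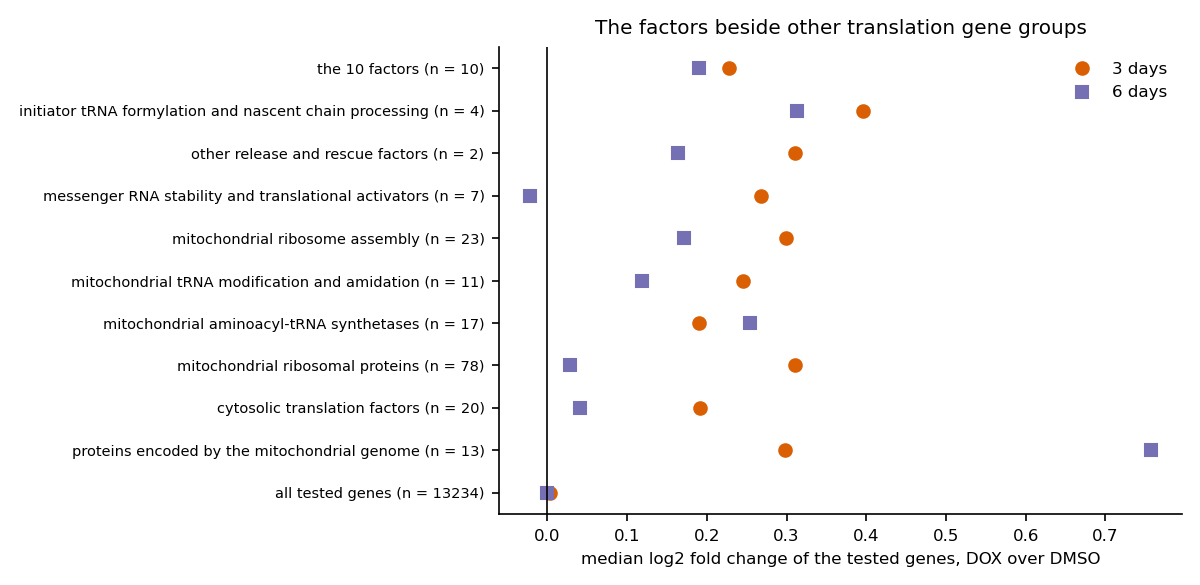
Median log2 fold change, DOX over DMSO, of the tested genes of each group at 3 days (circles) and 6 days (squares), with the number of genes. The 10 factors lie at 0.23 and 0.19, the mitochondrially encoded transcripts at 0.30 and 0.76, and all 13234 tested genes near 0.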

How the data were processed

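The deposited tables hold estimated counts and TPM per gene, which the authors made with salmon from paired reads (NEBNext directional poly(A) libraries, Illumina HiSeq) on GRCm38.p6. The strand setting of the quantification is not given in the sources used here. TPM are scaled by transcript length and library and keep no depth. The estimated counts, of which 20.1% had a fraction, were rounded to whole numbers, TMM-scaled and fitted in 1 robust quasi-likelihood model of all 16 libraries with edgeR 4.0.16 (R 4.3.3), with glmTreat at 1.2-fold for the 3 contrasts between groups and no minimum for the difference of differences. SE was the log2 fold change over the square root of the F statistic. DESeq2 1.42.0 and limma 3.58.1 served as alternatives. Scripts were tested on simulated data. No column was left out.

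The text names all 10 factors, Avil and the other genes whose exons overlap them, up to 2 genes that rose and 2 that fell most at 6 days in each list, and the 3 genes most like each called factor. The results of 2 genes that these rules name are not reported here. The overlap partners other than Avil were added after their values were seen. The factors and lists were chosen with earlier results of these data known. Gene positions and exon lengths came from GENCODE M21, which matched all 54393 identifiers. Alternatives were another scaling, filter, fold minimum and tool, a length and GC correction, the 8 libraries of a day alone, a replicate block and each library left out.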

Additional observations from a re-analysis of the deposited data

Results flagged for a closer look

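Of 40 sets of 4 replicate values (10 factors in 4 groups, in CPM), 3 held a library far from the other 3 by Dixon's criterion, where chance gives about 1 in 20. Mtrf1 in replicate 1 of DOX at 3 days was at 3.51 CPM, with the others at 4.50 to 4.59 CPM, and the gap took 0.919 of the group's range. Tufm in replicate 4 of DOX at 6 days was at 58.8 CPM with the others at 63.7 to 64.2 CPM, a share of 0.910. Tsfm in replicate 1 of DOX at 6 days was at 42.0 CPM with the others at 37.1 to 37.9 CPM, a share of 0.838.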

How the results depend on the processing

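The 4 calls at 3 days became 0 with limma on log2(TPM + 1) or log2(TPM + 0.1) and 1 with libraries centred on their median, an alternative chosen after seeing the data, and leaving out single libraries gave 3 to 4. The 1 call at 6 days became 0 under the same 3 TPM fits and 6 without a fold minimum, and leaving out single libraries gave 1 to 2. The 0 calls for the change of effect between times became 1 under the length and GC correction, with or without the replicate block, and 0 to 3 when single libraries were left out. The cause was not tested. Among the factors the DMSO days gave 0 calls, and the ratios gave 0 adjusted calls, in each alternative. Over all genes, calls at 3 days numbered 1658, and 1019 with DESeq2, 636 with limma on log2(TPM + 1) and 5982 without a minimum, and at 6 days 2856, 1238 with limma and 6702. With limma on log2(TPM + 1), 79 of the 636 genes were higher, and after centring 231 of 558, against 702 of 1658 in counts. Without replicate 1 of DOX at 3 days, 1079 genes were higher at 3 days, against 702. For the change of effect, 2252 genes passed, 568 with limma, 183 with a 1.2-fold minimum, 3788 without replicate 1 of DOX at 3 days, 1493 without replicate 2 of that group, 1370 without replicate 4 of DMSO at 3 days and 1470 without replicate 2 of DMSO at 6 days. By TPM in DOX, 6 of 10 factors kept their place in the order, and 8 by CPM per exon length in DMSO.

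Replicate numbers did not pair the samples: deviations of equally numbered libraries correlated from -0.43 to 0.18. With the replicate block 4 factors passed at 3 days and 1 at 6 days, and the ratios, tested by exact sign flips that cannot go below p = 0.125, gave 0. Depth limits Mtrf1 most, with 44 to 92 fragments a library.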
